A study of Drosophila melanogaster with 6 samples.

Results

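The odorant-binding protein (Obp) genes of Drosophila melanogaster were examined in wing imaginal discs, the larval tissue that forms the adult wing and notum. Members were taken as genes whose probe sets carry a single symbol that begins with Obp followed by a digit. This gave 47 genes, measured by 50 probe sets, among 11982 genes with a single symbol on the array. Each of 3 members (Obp19a, Obp19c and Obp59a) had 2 probe sets, and the one with the highest mean over the 6 arrays stood for the gene. Obp50b, Obp50c, Obp57d and Obp83a were not analysed as members.

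Odorant-binding proteins are small secreted carriers whose folded pocket holds a hydrophobic ligand. In the antenna and the taste bristles, support cells release them into the fluid around the sensory neurons, where they bind odorants, pheromones and tastants. Many members are also made outside sense organs, for example in fat body, gut, glia and reproductive tract, and the genes often lie side by side after local duplication.

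The study compared 3 groups of 2 arrays, each sample being a pool of 30 discs from wandering larvae of the third instar grown at 25 °C. In LID RNAi discs, act5C-Gal4, a driver active in most cells, expressed a hairpin against lid in larvae carrying the lidk06801 allele, so that knockdown and allele cannot be told apart. GFP RNAi discs expressed a control hairpin against GFP from the same driver in a w1118 background, and both hairpin strains came from NIG-FLY. Wild type discs had no RNAi, although their genetic background field also names w1118 with the driver. The LID RNAi and wild type strains therefore differ in allele, hairpin and possibly driver.

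Levels are RMA values on the log2 scale. A change is one group mean minus another in log2, given with the standard error (SE) of the limma fit (n = 2 arrays per group). Separate dissections are not stated for the 2 arrays of a group, so p-values measure only the spread between these arrays. Kdm5, the current name of lid, encodes a histone H3 lysine 4 demethylase and averaged 8.20 in LID RNAi discs, against 10.39 in GFP RNAi discs and 10.37 in wild type. The labels give 25 ng of total RNA as the amount amplified. Array medians lay between 6.31 and 6.43. LID RNAi replicate 2 stood apart: its difference between the 3′ and 5′ probe sets of GAPDH, a sign of RNA integrity, was 2.96, against 2.39 to 2.65 on the other 5 arrays. All 6 measured wing disc markers (vg, nub, ap, rn, en and tsh) lay above background. Of 5 markers of olfactory organs, Orco, lush, Snmp1 and a10 lay at background in all group means. On the single array LID RNAi replicate 1, lush read 5.29. Only the proneural gene amos lay slightly above background in its group means, at 5.03 to 5.31 on single arrays.

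Of the 47 odorant-binding protein genes, 25 lay above background in at least 1 group and 22 lay at background in all groups. Background was the 95% point, 4.82, of 27 control probe sets for Bacillus subtilis transcripts. The share above background was 53.2% for these genes and 77.2% for all genes with a single symbol. In single groups, 21 members lay above background in LID RNAi, 24 in GFP RNAi discs and 22 in wild type, and 16 did so on all 6 arrays. Without LID RNAi replicate 2, 27 members lay above background. The nearest members inside the limit were Obp99d, with a highest group mean of 4.86, and Obp56e at 4.90, and the nearest outside were Obp50d and Obp57e at 4.77. Levels of different probe sets depend on their probes and are not compared with each other here.

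The 22 members at background spanned 2.58 to 5.08 on single arrays. Among them were genes with known adult roles, such as Obp59a, which acts in humidity sensing, and Obp57e, which acts in taste. Obp83b, an antennal gene, read 3.33 and 3.0 in LID RNAi discs, 3.07 and 3.24 in GFP RNAi discs and 3.05 and 3.14 in wild type. Obp56g, whose product is part of the seminal fluid, read 4.03 and 3.80 in LID RNAi discs, 3.83 and 3.89 in GFP RNAi discs and 3.79 and 3.71 in wild type.

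The members above background are given here by runs of neighbouring genes, as a description. In the gene order of the assembly Release 6 plus ISO1 MT, all 4 Obp19 genes lay above background, as did all 3 genes of the run Obp83cd, Obp83ef and Obp83g and all 3 of the run Obp99c, Obp99d and Obp99b. With the highest control value, 5.56, as the limit none of these runs was whole, since Obp19a (highest group mean 5.06), Obp83cd (5.19) and Obp99d (4.86) fell below it. The Obp19 run also depended on the probe set. The dimmer probe sets of Obp19a (3.43 to 3.99) and Obp19c (3.36 to 3.65) lay at background on every array. No measured gene lay above background in the Obp50 run (3 members), in the run Obp57c, Obp57b and Obp57a (3), or in the run of Obp59a with Obp58b, Obp58c and Obp58d (4). The run from Obp56a to Obp56f was mixed, with Obp56a, Obp56b, Obp56d and Obp56e above background and Obp56c and Obp56f at background on all arrays.

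**Figure D1:**
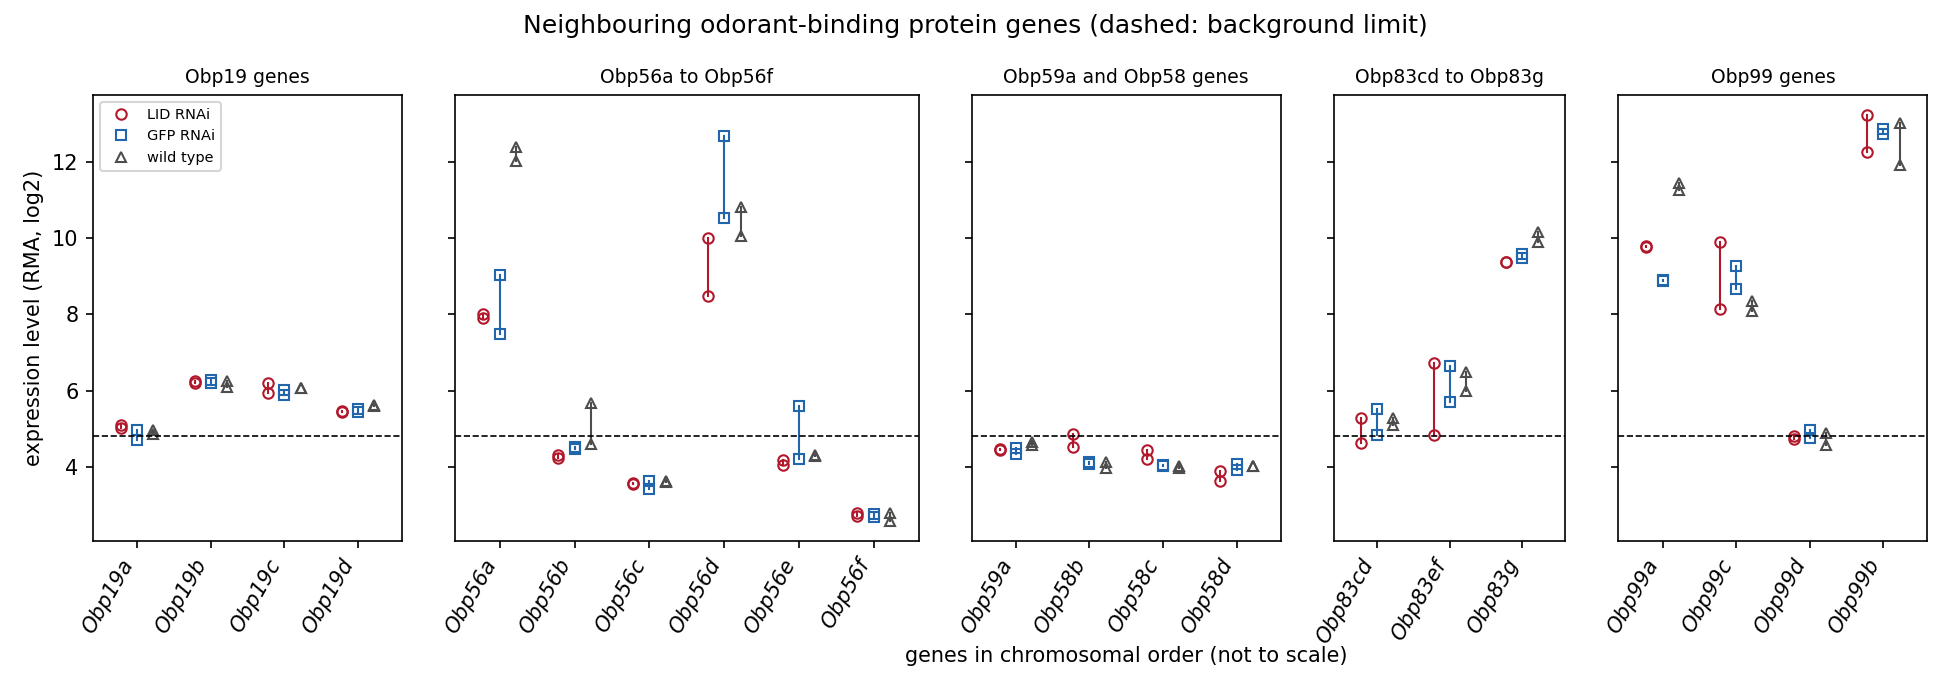
Levels (RMA, log2) of odorant-binding protein genes, most in runs of neighbours, in chromosomal order and not to scale. There is 1 marker per array and a line joining the 2 arrays of a group. Obp99a is drawn beside the run Obp99c, Obp99d and Obp99b but is not part of it, as other genes lie between. The dashed line is the background limit of 4.82. The Obp58 genes and Obp59a stay around or below it, and Obp56a and Obp99a are the genes where wild type lies well above both RNAi groups.

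Obp99a was the member that differed in all 3 comparisons. Its level was 9.78 and 9.77 in LID RNAi discs, 8.88 and 8.91 in GFP RNAi discs and 11.44 and 11.25 in wild type. The 3 groups did not overlap, with wild type highest, GFP RNAi lowest and LID RNAi between them. The group means were 9.78 ± 0.01 in LID RNAi discs, 8.90 ± 0.02 in GFP RNAi discs and 11.34 ± 0.13 in wild type (SD, n = 2 each). Obp99a differed between replicates by 0.01 in LID RNAi discs, 0.03 in GFP RNAi discs and 0.18 in wild type. Obp99a rose by 0.88 ± 0.09 (SE) in LID RNAi against GFP RNAi, a ratio of 1.84 (limma adjusted p = 0.0490). It fell by 1.57 ± 0.09 in LID RNAi against wild type, to 33.7% of the wild type level (limma adjusted p = 0.00846). In GFP RNAi against wild type it fell by 2.45 ± 0.09, to 18.3% (limma adjusted p = 0.00350).

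The call of Obp99a against GFP RNAi was lost without any 1 of the 6 arrays, with changes between 0.86 and 0.90. With 1 wild type array left out, Obp99a had the same fit as with LID RNAi and GFP RNAi alone. Its call for LID RNAi against wild type was lost without wild type replicate 1 (-1.48, adjusted p = 0.0653) or replicate 2 (-1.66, adjusted p = 0.0533), and that for GFP RNAi against wild type without GFP RNAi replicate 1 (-2.43, adjusted p = 0.0908) or replicate 2 (-2.47, adjusted p = 0.0872). Of its neighbours, ppk30 lay at background in all groups. The neighbour on the other side, ppk19, a sodium channel gene of salt taste, averaged 7.50 in LID RNAi discs, 7.46 in GFP RNAi discs and 7.88 in wild type, and passed in no comparison (lowest adjusted p = 0.285).

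Obp56a was low in both RNAi groups. It read 7.91 and 8.0 in LID RNAi discs, 7.48 and 9.03 in GFP RNAi discs and 12.38 and 12.01 in wild type. All 4 RNAi arrays lay below both wild type arrays, and the GFP RNAi arrays differed from each other by 1.55. In LID RNAi against wild type Obp56a fell by 4.23 ± 0.52 (SE), to 5.31% of the wild type level (limma adjusted p = 0.0346). The change in GFP RNAi against wild type was of similar size, -3.94 ± 0.52, and missed the threshold (limma adjusted p = 0.0681). LID RNAi against GFP RNAi gave -0.30 ± 0.52 (limma adjusted p = 0.870), with the sign turned, at 0.48, without GFP RNAi replicate 2.

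The call of Obp56a was lost without either LID RNAi array (adjusted p = 0.0783 and 0.126 without replicate 1 and 2) or without either wild type array (0.195 and 0.168), with changes between -4.42 and -4.05. The adjoining Obp56b read 4.30 and 4.24 in LID RNAi discs, 4.46 and 4.53 in GFP RNAi discs and 5.68 and 4.61 in wild type, so that only wild type replicate 1 exceeded background. On the other side the nearest measured gene, CG15128, lay at background in all groups. Obp56c, in the same run, lay at background too.

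Obp47a was the one member that rose in LID RNAi against wild type. It read 5.43 and 5.39 in LID RNAi discs, 5.13 and 5.29 in GFP RNAi discs and 4.73 and 4.74 in wild type, with no overlap between groups. The change was 0.67 ± 0.08 (SE, limma adjusted p = 0.0346), a lower bound because the wild type level lay within background. Obp47a stood at 0.47 ± 0.08 in GFP RNAi against wild type (limma adjusted p = 0.120) and at 0.20 ± 0.08 in LID RNAi against GFP RNAi (limma adjusted p = 0.438). Without any 1 of the 6 arrays the call of Obp47a against wild type was lost, with changes between 0.65 and 0.69. With 1 GFP RNAi array left out, Obp47a had the same fit as with LID RNAi and wild type alone. The adjoining serpin gene Spn47C read 10.89 and 10.73 in LID RNAi discs, 9.03 and 8.73 in GFP RNAi discs and 7.82 and 7.38 in wild type, and so had the same order of groups. Spn47C rose in LID RNAi by 3.21 ± 0.19 against wild type (limma adjusted p = 0.00846). Unlike Obp47a, it also passed against GFP RNAi, with 1.92 ± 0.19 (limma adjusted p = 0.049). Its change of 1.28 ± 0.19 in GFP RNAi against wild type missed the threshold (limma adjusted p = 0.0907). On the other side polyph lay at background.

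In LID RNAi against GFP RNAi 1 of 47 members rose and 0 fell in limma, where 0.165% of all 18769 probe sets tested rose and 0.304% fell. At an unadjusted p under 0.05, 4 members were higher (5.25% of all probe sets) and 3 lower (7.16%). In LID RNAi against wild type 1 rose (0.852% of all) and 2 fell (1.49%), and at an unadjusted p under 0.05 the counts were 4 (6.47%) and 5 (10.4%). In GFP RNAi against wild type 0 rose (0.437%) and 1 fell (0.426%), with 1 (4.83%) and 5 (6.53%) at an unadjusted p under 0.05. Without LID RNAi replicate 2, 0 members were called in LID RNAi against GFP RNAi and 1, Obp99a, against wild type. The median change over the 47 members was 0.01 in LID RNAi against GFP RNAi, -0.07 in LID RNAi against wild type and 0.00 in GFP RNAi against wild type, beside 0.00, -0.02 and -0.02 over all genes. Comparisons that share a group share its arrays.

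**Figure D2:**
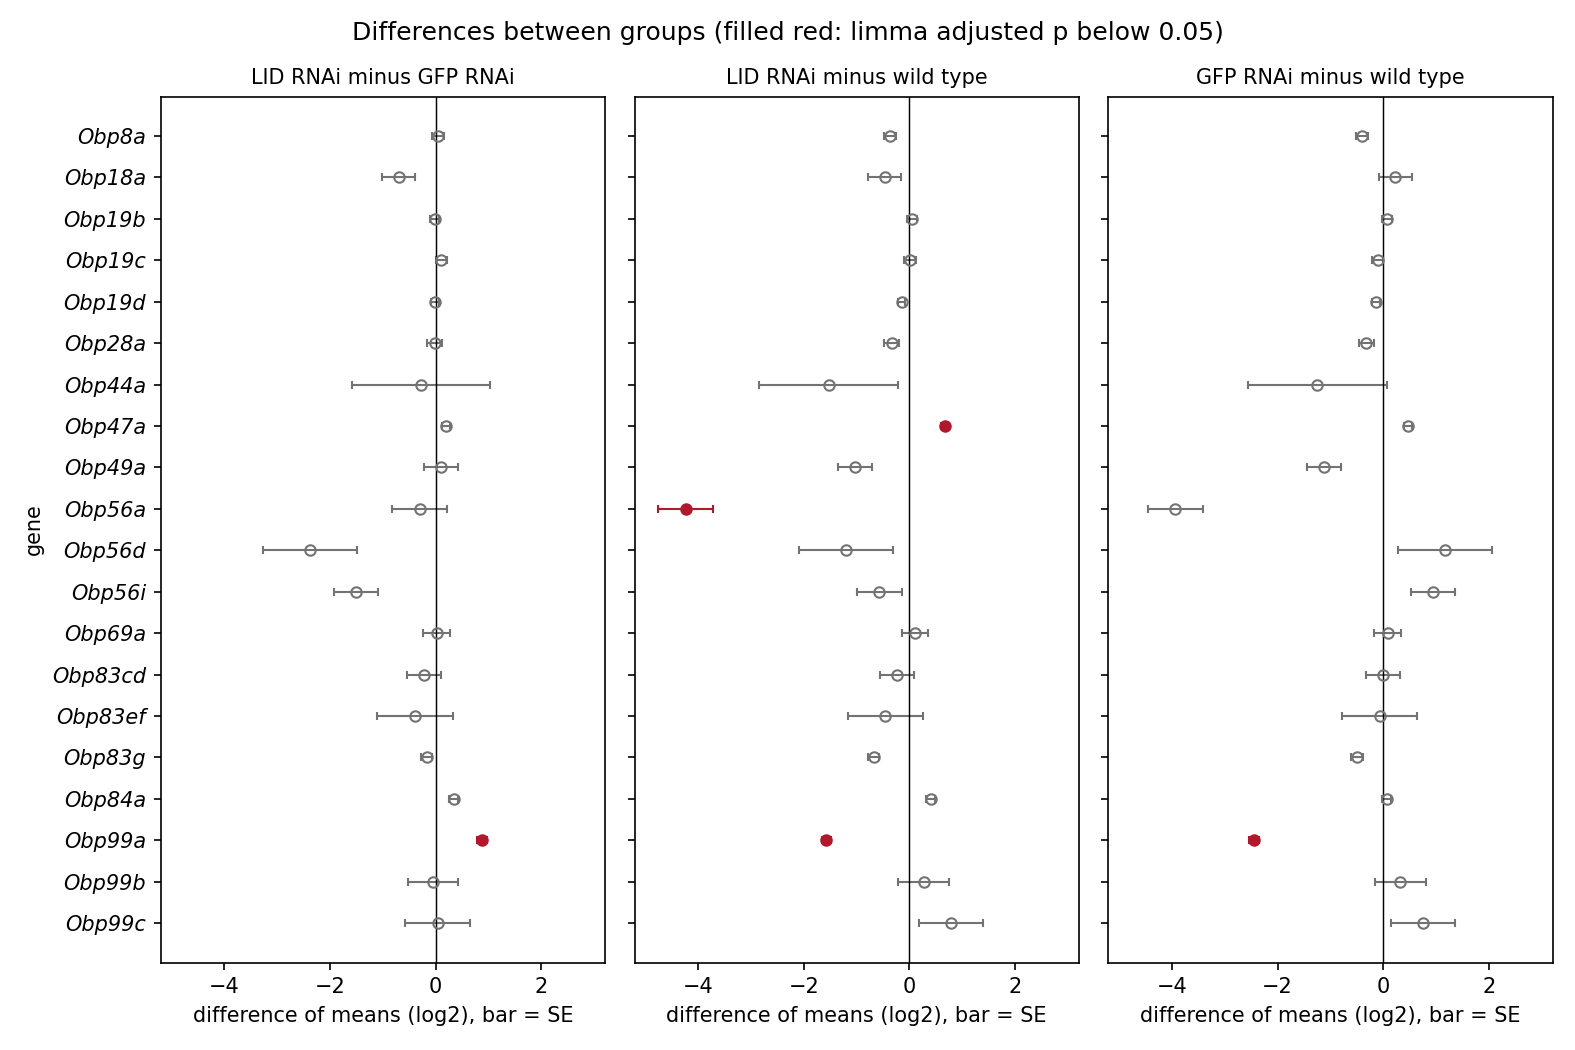
Differences of group means (log2, points) with their SE (bars) for 20 odorant-binding protein genes in the 3 comparisons. Filled red points passed limma at an adjusted p below 0.05: Obp99a in all comparisons, and Obp56a and Obp47a in LID RNAi against wild type.

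Several members had small spread and small differences that missed the threshold. Obp83g read 9.36 and 9.37 in LID RNAi discs, 9.59 and 9.48 in GFP RNAi discs and 10.16 and 9.91 in wild type, where both RNAi groups lay below wild type without overlap. Its change in LID RNAi against wild type was -0.68 ± 0.11 (SE, limma adjusted p = 0.0639). Obp84a, an antennal gene first described as Pbprp4, read 8.60 and 8.61 in LID RNAi discs, 8.25 and 8.28 in GFP RNAi discs and 8.14 and 8.27 in wild type. Both LID RNAi arrays were higher than the other 4, by a mean of 0.34 ± 0.08 over GFP RNAi (limma adjusted p = 0.203) and 0.40 ± 0.08 over wild type (limma adjusted p = 0.0899).

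Obp49a, which in taste bristles lets bitter compounds suppress the response to sugar, read 5.30 and 4.74 in LID RNAi discs, 4.99 and 4.84 in GFP RNAi discs and 6.43 and 5.67 in wild type. The RNAi arrays lay near background and both wild type arrays above them, with -1.03 ± 0.32 (SE) for LID RNAi against wild type (limma adjusted p = 0.212). Obp8a read 5.87 and 5.86 in LID RNAi discs, 5.96 and 5.70 in GFP RNAi discs and 6.26 and 6.20 in wild type. Its wild type arrays were again the highest, with -0.37 ± 0.11 for LID RNAi against wild type (limma adjusted p = 0.195).

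Obp28a, abundant in the adult antenna, read 5.59 and 5.35 in LID RNAi discs, 5.63 and 5.36 in GFP RNAi discs and 5.87 and 5.75 in wild type. Wild type lay above both RNAi groups by 0.34 and 0.32, neither of which passed (limma adjusted p = 0.338 and 0.514). Obp19d read 5.47 and 5.44 in LID RNAi discs, 5.51 and 5.43 in GFP RNAi discs and 5.59 and 5.63 in wild type. Obp19b read 6.24 and 6.20 in LID RNAi discs, 6.21 and 6.27 in GFP RNAi discs and 6.09 and 6.25 in wild type. Obp19c read 6.20 and 5.95 in LID RNAi discs, 6.02 and 5.89 in GFP RNAi discs and 6.06 and 6.07 in wild type. The groups overlapped for Obp19b. For Obp19c GFP RNAi lay below wild type without overlap, and LID RNAi overlapped both. No Obp19 gene passed in any comparison.

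Obp18a read 7.65 and 7.04 in LID RNAi discs, 7.98 and 8.10 in GFP RNAi discs and 7.47 and 8.16 in wild type, so that LID RNAi was lower than GFP RNAi without overlap (-0.70 ± 0.31 SE, limma adjusted p = 0.472). Obp69a, which acts in the response to a male pheromone, read 6.63 and 6.02 in LID RNAi discs, 6.52 and 6.09 in GFP RNAi discs and 6.28 and 6.16 in wild type, with full overlap. Obp83cd read 5.29 and 4.63 in LID RNAi discs, 5.52 and 4.84 in GFP RNAi discs and 5.27 and 5.11 in wild type, also with overlap. The 5 remaining members above background, Obp19a, Obp56b, Obp56e, Obp73a and Obp99d, spanned 4.05 to 5.68 and passed in no comparison.

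**Figure D3:**
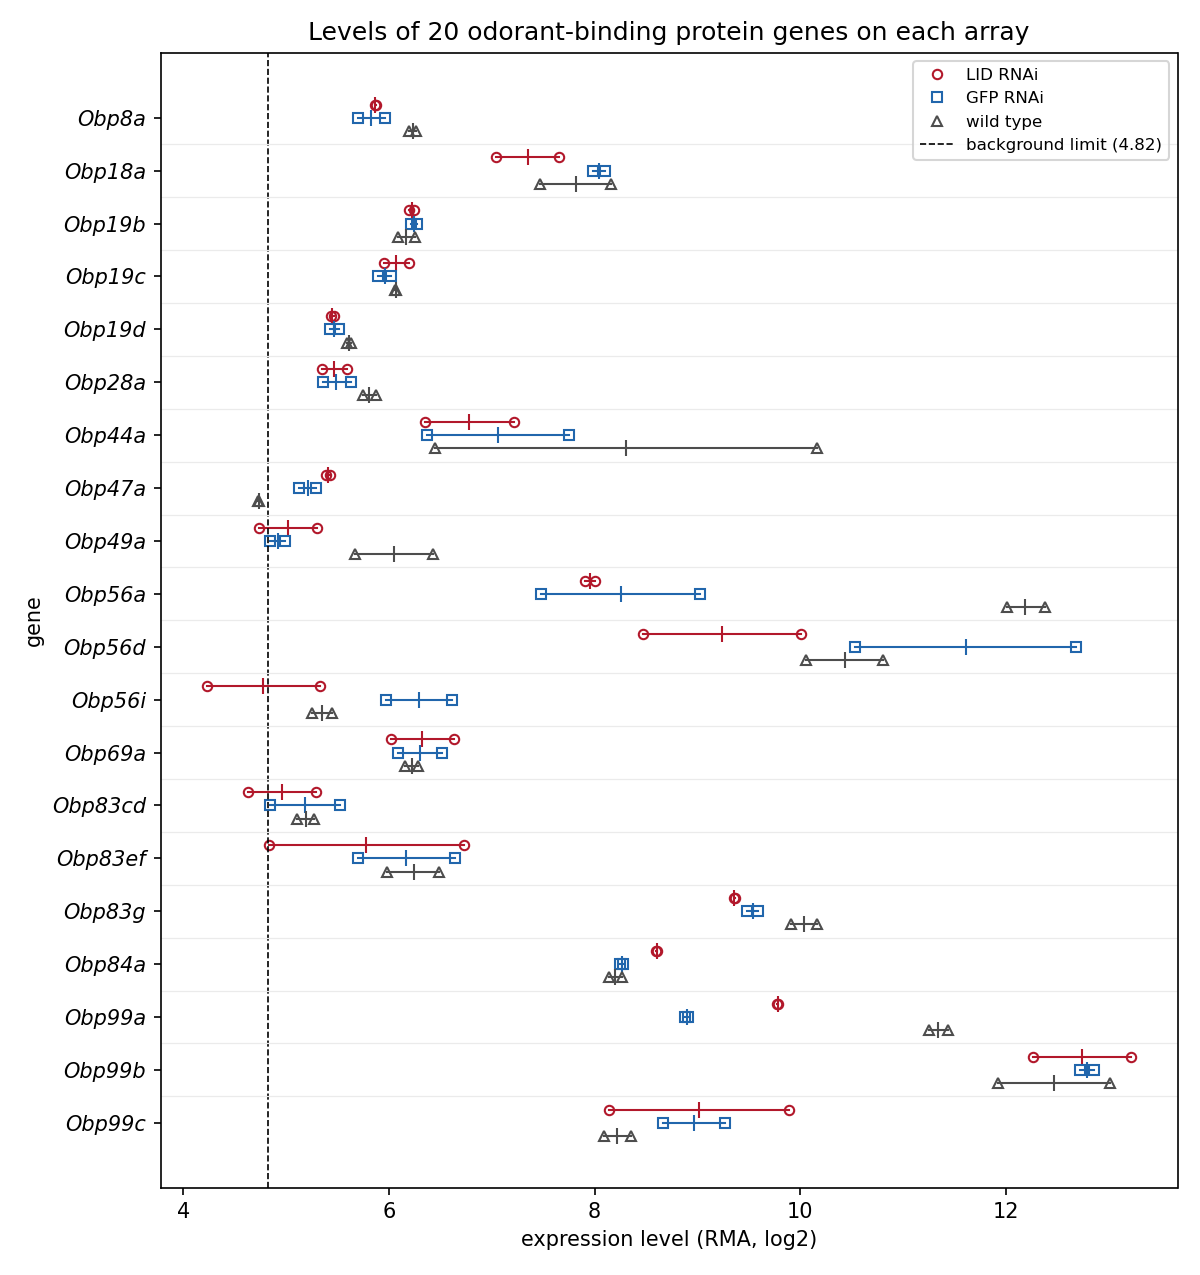
Expression level (RMA, log2) of 20 odorant-binding protein genes, with open symbols for single arrays, a line joining the 2 arrays of a group and a tick at the group mean. The dashed line is the background limit of 4.82. Obp99a separates all 3 groups, Obp56a separates wild type from both RNAi groups, and Obp44a spans 6.45 to 10.16 within wild type.

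Some members differed more between arrays of 1 group than between groups. A gap of over 1 between replicates was found in 4 of the 25 members above background in LID RNAi (16.0%, beside 4.31% of all genes above background), in 4 in GFP RNAi (16.0%, beside 1.75%) and in 3 in wild type (12%, beside 1.84%). The background limit itself can select such genes. Obp56e in GFP RNAi (4.20 and 5.59) and Obp56b in wild type (5.68 and 4.61) counted as above background only through the 1 high array that made their gap. The median gap of the 25 was 0.14 in LID RNAi discs, 0.21 in GFP RNAi discs and 0.20 in wild type, beside 0.13, 0.10 and 0.09 for all genes above background.

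Obp44a, a fatty acid carrier of larval glia, had the widest gap. It read 6.35 and 7.22 in LID RNAi discs, 7.75 and 6.37 in GFP RNAi discs and 10.16 and 6.45 in wild type. Wild type replicate 1 alone was high, and the change of -1.53 ± 1.31 (SE) in LID RNAi against wild type rested on it (limma adjusted p = 0.636). On that array the gut gene thetaTry, which encodes a trypsin, read 9.57, against 4.04 on wild type replicate 2. The 7 measured gut markers, of which 4 lay above background, summed to 456 and 194 on the linear scale in LID RNAi, 222 and 283 in GFP RNAi discs and 1255 and 288 in wild type. Glia markers had sums of 9389 and 9015 in LID RNAi discs, 8446 and 9113 in GFP RNAi discs and 8324 and 8644 in wild type. Most of each glia sum came from 1 gene, nrv2, at 12.73 to 12.86 on the log2 scale. The glia marker repo read only 6.13 to 6.72, and gcm lay at background, so these sums say little about the other glia markers. On wild type replicate 1 thetaTry made up most of the gut sum. Of the other gut markers, LysP and LysX lay below background on every array and Jon99Ci in every group mean. In LID RNAi and in GFP RNAi discs the gut sum and Obp44a moved in opposite directions between replicates. The part of gut tissue or of glia in the Obp44a reading was not tested.

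Obp56d read 10.01 and 8.47 in LID RNAi discs, 10.53 and 12.68 in GFP RNAi discs and 10.81 and 10.06 in wild type. GFP RNAi replicate 2 was the highest array and LID RNAi replicate 2 the lowest. The group difference of -2.37 ± 0.89 (SE) in LID RNAi against GFP RNAi did not pass (limma adjusted p = 0.396). It was -1.29 without GFP RNAi replicate 2 and -3.45 without GFP RNAi replicate 1. Obp56e, the next odorant-binding protein gene along, read 4.19 and 4.05 in LID RNAi discs, 4.20 and 5.59 in GFP RNAi discs and 4.32 and 4.29 in wild type. It exceeded background only on GFP RNAi replicate 2, the array where Obp56d and Obp56a were also above their own replicate. Obp56i read 5.33 and 4.23 in LID RNAi discs, 6.61 and 5.97 in GFP RNAi discs and 5.25 and 5.45 in wild type. Both GFP RNAi arrays were the highest for Obp56i, and LID RNAi against GFP RNAi gave -1.51 ± 0.42 (limma adjusted p = 0.270). The LID RNAi mean of 4.78 lay within background, but its first array (5.33) exceeded the limit and its second (4.23) did not. The size of this difference therefore depended on the LID RNAi array used. It was -0.96 when the second was left out and -2.06 when the first was.

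Obp99b, also known as turn on sex-specificity (tsx) for its expression in the fat body of adult male heads, read 13.22 and 12.26 in LID RNAi discs, 12.86 and 12.72 in GFP RNAi discs and 13.01 and 11.92 in wild type. All 6 arrays lay far above background and the groups overlapped. Obp99c read 9.89 and 8.14 in LID RNAi discs, 9.27 and 8.67 in GFP RNAi discs and 8.35 and 8.09 in wild type. Obp83ef read 6.73 and 4.83 in LID RNAi discs, 6.64 and 5.70 in GFP RNAi discs and 5.98 and 6.49 in wild type. For these 3 genes replicate 1 exceeded replicate 2 in each group, apart from Obp83ef in wild type.

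Fat body markers moved in the same direction between replicates. The 4 measured markers, Lsp2, Fbp1, Fbp2 and apolpp, encode a larval serum protein, a receptor for larval serum proteins, a fat body protein and the lipophorin precursor. All 4 were higher on replicate 1 in each group, and none lay at background. Their summed linear level was 15650 and 5888 in LID RNAi discs, 11606 and 8485 in GFP RNAi discs and 12735 and 8304 in wild type. Salivary gland markers moved the other way in LID RNAi, with 4628 and 10393, against 7789 and 4062 in GFP RNAi discs and 5314 and 5984 in wild type. A higher replicate 1 was not particular to fat body in LID RNAi and wild type. Of 7 gut markers, 7, 2 and 5 were higher on replicate 1 in LID RNAi, GFP RNAi and wild type. Of 9 haemocyte markers, 8, 1 and 9 were. In pooled discs, more cells of a type and more RNA per cell cannot be told apart. The part of attached tissue in these gaps was not tested, nor that of RNA integrity on LID RNAi replicate 2.

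**Figure D4:**
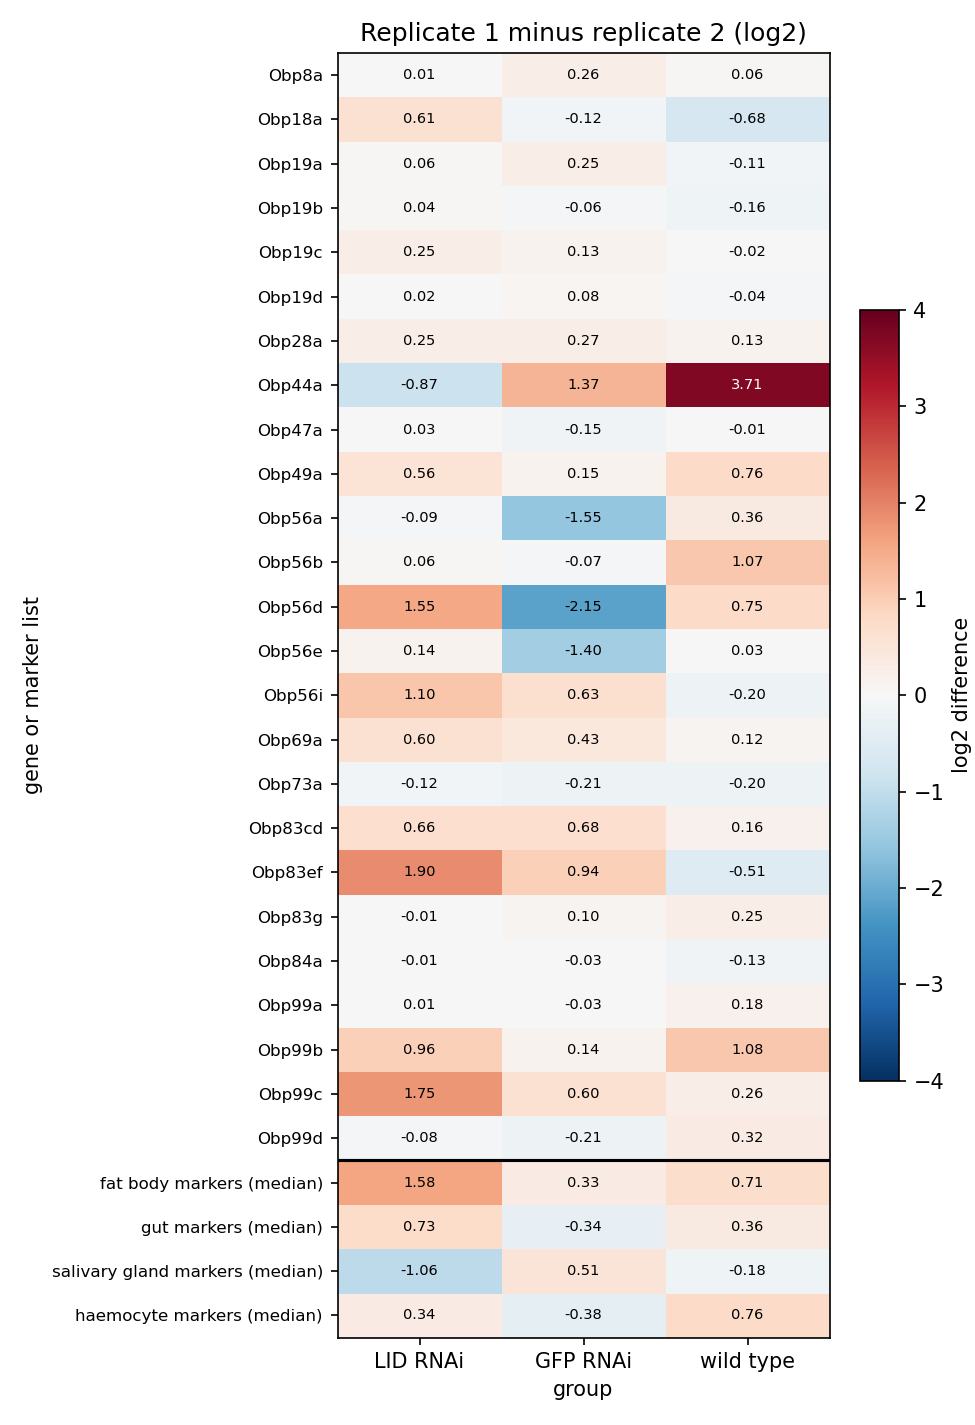
Replicate 1 minus replicate 2 (log2) in each group for the 25 odorant-binding protein genes above background and, under the line, the median of this difference over 4 lists of tissue markers. Red is higher on replicate 1. Obp44a in wild type (3.71) and Obp56d in GFP RNAi (-2.15) have the widest gaps. In LID RNAi, Obp99c (1.75) shares its sign with fat body (1.58), gut (0.73) and haemocyte (0.34) markers.

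All 9 haemocyte markers lay above background, with summed linear levels of 23300 and 19284 in LID RNAi discs, 12865 and 14935 in GFP RNAi discs and 14782 and 9935 in wild type. Both LID RNAi sums were the highest, and the GFP RNAi and wild type sums overlapped. The sums do not stand for all haemocyte markers alike. In LID RNAi against wild type the largest changes were those of PPO1 (2.71) and PPO2 (2.63). The other markers ranged from -0.09 (NimC1) to 1.02 (eater), with srp at 0.00 and crq at 0.05. The part of haemocytes in the changes of Obp47a, Obp56a and Obp99a was not tested. None of the 9 haemocyte markers passed in any comparison, nor did any measured marker of eye disc (5), neurons (4), trachea (4) or muscle (3). The salivary gland marker ng1 rose in LID RNAi by 2.28 against GFP RNAi and by 2.71 against wild type (limma adjusted p = 0.0338 and 0.00846), with both other groups within background. The gut marker LysX, within background in all groups, was called lower in LID RNAi against GFP RNAi (limma adjusted p = 0.0362) and against wild type (0.0438).

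Other families of secreted carriers had 1 or no members past the threshold in each comparison. Of 12 measured genes of the takeout family, carriers related to juvenile hormone binding proteins, 8 lay above background and Jhbp12 changed by -2.35 in LID RNAi against GFP RNAi and by -3.11 against wild type (limma adjusted p = 0.00550 and 0.00187). Jhbp12 read 4.89 and 4.96 in LID RNAi discs, 7.34 and 7.21 in GFP RNAi discs and 7.98 and 8.09 in wild type, so that the 3 groups did not overlap. It also passed in GFP RNAi against wild type (-0.76, limma adjusted p = 0.0487).

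Of 4 chemosensory proteins, a separate family of small carriers, EbpIII, first found in the ejaculatory bulb, rose by 0.96 in LID RNAi against wild type (limma adjusted p = 0.0346), and 3 did not pass. None of 8 NPC2 genes, which encode sterol carriers, and none of 3 lipocalins passed in any comparison, although the median change of the lipocalins was -1.05 in LID RNAi against wild type. Among 17 perireceptor genes, which act around the chemosensory receptors, 5 lay above background. Cyp6a20, a P450 gene of antennal support cells, fell by 2.06 in LID RNAi discs and by 2.08 in GFP RNAi against wild type (limma adjusted p = 0.00455 and 0.00429). Its level of 4.98 in LID RNAi discs and 4.95 in GFP RNAi discs, against 7.04 in wild type, put both RNAi groups below wild type, as for Obp56a. Of 5 co-receptors of chemosensory receptors, Ir25a and Ir93a lay above background, and none passed.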

How the data were processed

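The authors deposited log2 values for each probe set. Per the submitters' processing notes the method was RMA, and no version is named. RMA corrects background, normalizes arrays and summarises probes. Of 18952 probe sets, 183 manufacturer controls were left out and 18769 tested. Group means were estimated over the 6 arrays in 1 limma model (limma 3.58.1, R 4.3.3) (3 residual degrees of freedom, prior 1.77), with two-sided tests and Benjamini-Hochberg adjustment over all 18769 probe sets at a threshold of 0.05. Symbols come from the platform annotation, and current names and gene order from the RefSeq table of Release 6 plus ISO1 MT. All 47 members matched it, and no coordinates were used. Given in full were the 20 members with the highest group means among those above background or called, with further genes from lists of carriers, perireceptor genes, co-receptors and tissue markers, and the nearest measured neighbours of called members. Members, lists and the background limit were chosen with earlier results of these data known. Members at background that are named were picked with their values in view. The model was also run on simulated data with independent normal noise of the fitted spread. Such data hold no differences of tissue or RNA integrity between replicates, so the run cannot show how the model handles these. Alternatives were a replicate block, quantile normalization, median centring, a filter on dim probe sets, fits of 2 groups, an intensity trend, means over probe sets, other background limits and leaving out each array. The number of arrays limits the precision.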

Additional observations from a re-analysis of the deposited data

How the results depend on the processing

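The count of called members kept within 1.5 times its value under quantile normalization, median centring, the dim filter and means over probe sets in all 3 comparisons. In LID RNAi against GFP RNAi (1 member) it was 0 in a fit of the 2 groups alone, which has fewer residual degrees of freedom, and 0 without any 1 array. In LID RNAi against wild type (3 members) it was between 0 and 2 without 1 array. In GFP RNAi against wild type (1 member) it was between 0 and 1 without 1 array, and 2 with an intensity trend, where Obp56a passed (adjusted p = 0.0206). In LID RNAi against wild type Obp83g passed with the dim filter (adjusted p = 0.0464) and with the trend (0.0341), where Obp47a did not (0.0598). With the replicate block, 0, 1 and 1 members were called in the 3 comparisons, and over all probe sets 12, 200 and 41, against 88, 439 and 162 without it. The replicate numbers share no stated source, and deviations of same-numbered arrays correlated at 0.298, 0.223 and 0.065, so the numbers were not taken to pair the arrays. The number of members above background was 25, 38 with the 80% point (3.91) as the limit, 18 with the highest control value (5.56), and 24 to 27 without 1 array. The 975 values of single genes under alternatives covered 75 results, most of them without a call to lose. Of these values, 26 lost a call, all for Obp99a, Obp56a or Obp47a, 3 gained one and 0 called values changed sign. The 26 are thus to be read against the few called results, not against 975. A group left with 1 array is assumed to vary like the others. Leaving out an array of the group not compared gives the same fit as the 2 groups alone. Some of the 26 lost calls therefore repeat each other. Over all probe sets the count of calls in LID RNAi against GFP RNAi was 154 with the dim filter, 247 with the trend and 3 in the fit of 2 groups, and in the other comparisons the trend gave 784 and 325 and the fit of 2 groups 99 and 90.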

Other observations

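Probe sets that name an odorant-binding protein gene together with another gene were left out of the members. The brighter of 2 probe sets shared by Obp57d and the cuticle gene Cpr57A read 7.54 and 6.85 in LID RNAi discs, 7.87 and 7.93 in GFP RNAi discs and 7.44 and 7.25 in wild type, and its signal cannot be assigned to either gene. Both probe sets shared by Obp50b and Obp50c lay at background, between 3.28 and 4.68. Of the members with 2 probe sets, Obp19a and Obp19c had 1 above background and 1 at background. For Obp19c they read 6.20 and 5.95 against 3.53 and 3.56 in LID RNAi discs, so whether this gene counts as detected depends on the probe set.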
